A study of Homo sapiens with 15 samples.

Results

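Genes with very long coding exons were examined for MPP8 binding in cells lacking either of the paralogs TASOR and TASOR2. The group held 51 named genes of 20037 protein-coding genes. Of these, 45 were listed for a long exon and 6 (MKI67, ANKRD11, SPEN, SRRM2, ASPM and RLF) were added, chosen by the presence of a TASOR2 KO peak in the gene, and are counted apart. The 45 were also listed with peaks of both knockouts known. Exon positions were not used here, so peaks were placed on the whole RefSeq gene body and the label could not be checked against exon lengths. ChIP-seq of MPP8 was carried out in K-562, a human chronic myeloid leukaemia cell line. Peak lists of 2 of the 15 samples were used, 1 library of a TASOR KO clone and 1 of a TASOR2 KO clone, each precipitated with the same antibody to MPP8. Both knockouts were made with CRISPR/Cas9 and grown from single sorted cells, so each genotype is 1 clone, and whether these cells also carried the empty lentiviral vector used in the study as a negative control is not stated for them. MPP8 ChIP in unedited and in MPP8 KO cells and input chromatin were not analysed here, so the level of non-specific signal at these genes was not measured.

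MPP8 is a chromodomain protein that binds histone H3 methylated at lysine 9. With the scaffold TASOR and the RNA-binding protein periphilin it forms the human silencing hub (HUSH), which represses LINE-1 elements and other long transcribed DNA without introns. Most human genes have short exons separated by long introns, while a few carry most of their coding sequence in 1 uninterrupted exon, among them the tumour suppressor gene APC, the proliferation gene MKI67 and the splicing factor genes SON and SRRM2. HUSH has been described at long exons of active genes.

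In TASOR2 KO cells MPP8 peaks lay in 7 of the 45 listed genes: APC, SON, HIVEP1, CENPF, BOD1L1, AKAP11 and MAP1B. That is 15.6% (exact Clopper-Pearson 95% interval 6.49 to 29.5), beside 0.858% of all protein-coding genes and 1.16% of those with a body of at least 50 kb. In TASOR KO cells a peak lay in 1 of the 45, TRANK1 (2.22%, 0.0562 to 11.8), beside 1.08% of all protein-coding genes and 1.67% of those of at least 50 kb. All 6 added genes had a TASOR2 KO peak, which is how they were chosen, and 0 of the 6 had a TASOR KO peak. No gene of the 51 had a peak in both lists, a count of 0 beside 0.155% of all protein-coding genes with a peak of each. Of the 51, 37 had a peak in neither list. The same holds for most protein-coding genes, of which 0.858% had a TASOR2 KO peak and 1.08% a TASOR KO peak. The 7 of 45 cannot be read as an unbiased rate, because the genes were listed with peaks of these data known. The listing opens with CENPF, BOD1L1, MAP1B, AKAP11 and TRANK1, each of which has a peak, and without these 5 a TASOR2 KO peak remained in 3 of 40 genes (7.50%) and a TASOR KO peak in 0.

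A further list of 50 genes also known for a long exon had 1 gene with a peak in each knockout. It too was written with earlier results of these data known, and it was not compared with the first list by a test. It held the giant cadherin genes FAT1, FAT2, FAT3 and FAT4, the epidermal genes FLG, FLG2, HRNR and TCHH, the chromatin genes SETD2, NSD1, EP300 and ATRX, the kinetochore gene KNL1 and others. A TASOR2 KO peak lay in 1 of the 50, ZNF292 (2%, 0.0506 to 10.6), and a TASOR KO peak in 1, LCOR (2%, with the same interval). The background shares were again 0.858% and 1.08%, and both lie within these intervals. The TASOR2 KO interval overlaps that of the 45 listed genes. Neither placement is a test, since both lists were written with results of these data known, and no conclusion is drawn from them. The 38 further genes with a promoter window in the RefSeq table had a median of 12 CG dinucleotides in 300 bases at the start, beside 25 in the 34 members without a TASOR2 KO peak that have a window. As each genotype had a single library, replicate error is unknown and no test was made; intervals cover counting error only, and the shares describe these 2 deposited lists.

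The lists limit what the contrast between the knockouts can show. The TASOR KO list held 427 peaks and the TASOR2 KO list 264, each being part of a longer numbered list, and the sources used here do not say how the parts were selected. TASOR KO peaks lay on 21 chromosomes and TASOR2 KO peaks on 19, so each list left some chromosomes without a peak. A gene on such a chromosome could have no peak in that list. The TASOR KO list had 0 peaks on chromosomes 1 and 13, which carry 10 of the 51 genes, among them SPEN, RLF, ASPM, CENPF and AKAP11. Of the 14 TASOR2 KO peaks in the group, 6 lay on these chromosomes. The other 8 lay between 273 kb (APC) and 6.76 Mb (ANKRD11) from the nearest TASOR KO peak, and 6 of the 8 were more than 1 Mb away. Sequencing depth is not given in the lists and is unknown. Differences in selection, threshold and genotype between the lists cannot be told apart.

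The peaks lay inside the gene bodies, some near the 3′ end, and away from listed starts. This was not particular to the group, since 1 of all 264 TASOR2 KO peaks held a listed start of a protein-coding gene. Listed starts were at hand for 15843 of the 20037 protein-coding genes, so counts of peaks holding a start are minimum counts. All 14 TASOR2 KO peaks were wholly within the gene body. For the 13 peaks of the 12 genes whose start and strand were in the RefSeq table, 0 held a listed start of the gene. The nearest listed start was 7.01 kb away in SON, the closest, and 205 kb away in ANKRD11, the farthest, with a median of 37.2 kb. The promoter windows of these extremes, and of TRANK1, the gene with TASOR KO peaks, are shown because they are parts of bound genes that no peak reached. Each runs from 250 bases before to 50 bases after the start (RefSeq, GRCh38.p14, 5′ to 3′ on the gene's strand), with CG dinucleotides in capitals. The ANKRD11 window is chr16:89490512-89490811 on the minus strand, that of SON is chr21:33542788-33543087 on the plus strand and that of TRANK1 is chr3:36945005-36945304 on the minus strand.
ANKRD11: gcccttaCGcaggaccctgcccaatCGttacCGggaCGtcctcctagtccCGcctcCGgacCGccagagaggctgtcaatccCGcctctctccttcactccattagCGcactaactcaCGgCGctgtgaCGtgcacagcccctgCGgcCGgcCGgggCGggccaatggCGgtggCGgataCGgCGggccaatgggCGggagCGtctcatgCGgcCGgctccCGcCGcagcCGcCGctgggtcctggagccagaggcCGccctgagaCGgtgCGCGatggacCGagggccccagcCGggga
SON: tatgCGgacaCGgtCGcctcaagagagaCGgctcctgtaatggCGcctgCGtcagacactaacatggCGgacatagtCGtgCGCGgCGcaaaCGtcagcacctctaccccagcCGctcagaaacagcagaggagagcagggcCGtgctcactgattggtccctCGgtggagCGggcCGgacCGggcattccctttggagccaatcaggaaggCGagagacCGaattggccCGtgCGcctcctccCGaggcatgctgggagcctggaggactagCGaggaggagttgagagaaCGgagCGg
TRANK1: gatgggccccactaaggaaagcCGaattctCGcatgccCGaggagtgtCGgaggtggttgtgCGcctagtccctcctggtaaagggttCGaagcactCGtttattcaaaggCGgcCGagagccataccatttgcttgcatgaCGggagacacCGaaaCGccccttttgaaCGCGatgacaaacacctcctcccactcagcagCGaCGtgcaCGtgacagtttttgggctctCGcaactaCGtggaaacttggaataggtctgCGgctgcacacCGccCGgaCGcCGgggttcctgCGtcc
These windows held 34, 26 and 25 CG dinucleotides, above the median of 22 over 15843 protein-coding genes.

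Along the direction of transcription, 11 of the 13 peak centres lay beyond the midpoint of the gene, the exceptions being BOD1L1 (44.4% of the way) and SON (29.9%). Of the 7 peaks of listed genes 5 did so, and of the 6 of added genes 6. This was also the general pattern of the TASOR2 KO list, in which 114 of 149 peaks placed in protein-coding genes (76.5%) lay beyond the midpoint. ZNF genes, here those whose symbol is ZNF followed by a digit, had 60 of 67 (89.6%), and the remaining genes 43 of 69 (62.3%). The long-exon genes stood at 84.6% with the added genes, which were chosen for their peaks, and at 5 of 7 for the listed genes alone. Both values were near the share of the list. In the TASOR KO list 52 of 166 (31.3%) lay beyond the midpoint. Of its 427 peaks, 90 held a listed start of a protein-coding gene, against 1 of the 264 TASOR2 KO peaks.

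**Figure D1:**
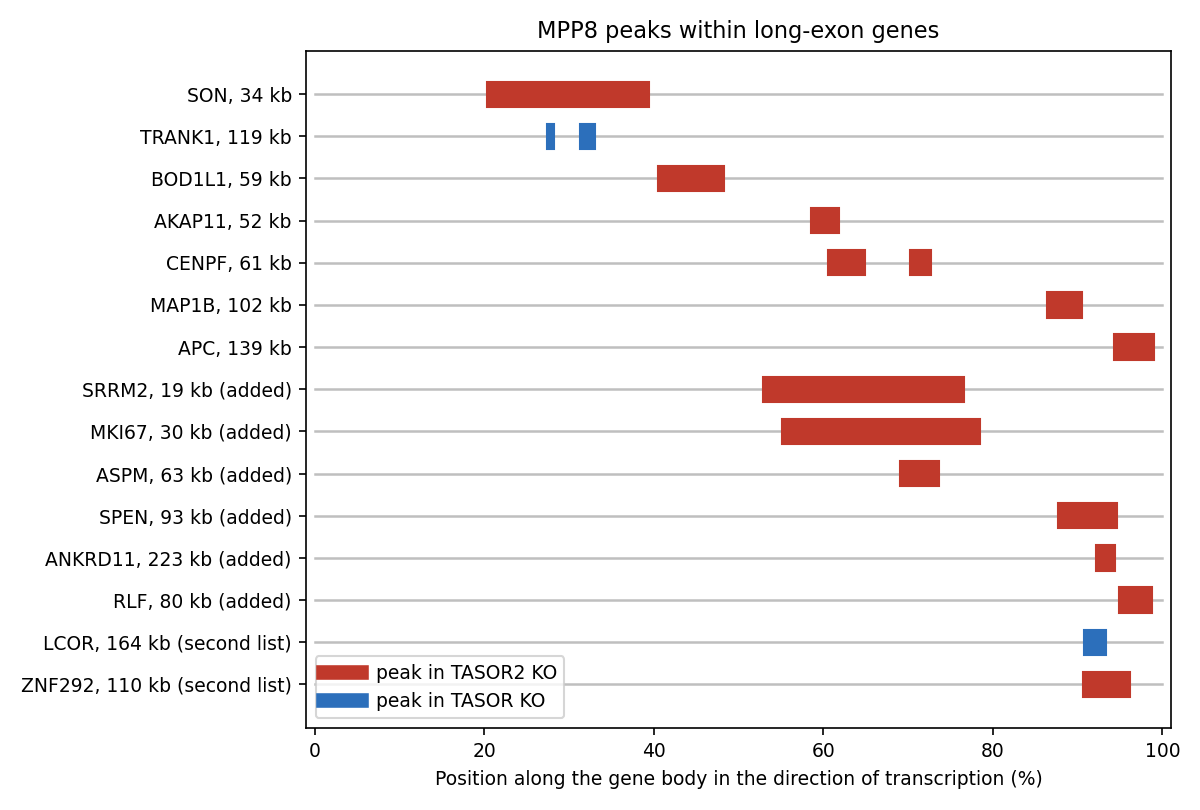
Position of each MPP8 peak along the gene body (% of its length, 0 at the 5′ end), drawn to width, for TASOR2 KO (red) and TASOR KO (blue), with gene lengths in kb. Listed genes are at the top, added genes below them and the 2 genes of the further list at the bottom; HIVEP1, without a strand in the table, is left out. The peaks of APC, RLF, ANKRD11, SPEN and MAP1B lie near the 3′ end, and that of SON in the first part of the gene.

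Among genes of mitosis, replication and DNA repair, 2 of 8 listed and both added genes had a TASOR2 KO peak. The 2 listed genes, CENPF and BOD1L1, are among those that open the listing, so this count cannot be read as an unbiased rate. The share over all protein-coding genes, 0.858%, stands beside this class and each class below. CENPF (gene ID 1063, chromosome 1, 214603195 to 214664571, hg38) encodes a large kinetochore protein. It was the member with a pair of TASOR2 KO peaks, 2666 bp wide at 214640371 to 214643036 and 1573 bp at 214646265 to 214647837. Their folds over background, as the authors' peak caller gave them, were 4.09 and 4.03, and they ranked 50 and 51 of 264 by −log10 q (1.59 for both). The fragments were neighbours in a single gene and are not independent of each other. BOD1L1, whose product protects stalled replication forks, had a peak of 4596 bp (chromosome 4, 13599241 to 13603836) with a fold of 4.15 and rank 74.

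MKI67 and ASPM, the added genes of this class, were chosen for their peaks, so their ranks are not compared with those of the listed genes. MKI67 encodes Ki-67, which coats mitotic chromosomes and is widely used as a proliferation marker. Its peak (chromosome 10, 128103047 to 128110021) was the widest of the group at 6975 bp, covered 23.4% of the 29.8 kb gene body, and ranked 12 with a fold of 4.71. ASPM, a spindle pole gene mutated in microcephaly, had a peak of 2904 bp (chromosome 1, 197100616 to 197103519) that ranked 15 with a fold of 4.47. No peak lay in BRCA1, BRCA2, MDC1, RIF1, REV3L, the catalytic subunit gene of a translesion polymerase, or CASP8AP2 in either list.

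The strongest peak of the group lay in ANKRD11, a gene of chromatin and transcription. This gene was added for its peak, so the classes are not ranked by that peak. ANKRD11 (gene ID 29123, chromosome 16, 89267630 to 89490561) encodes a chromatin regulator that binds histone deacetylases. Its peak at 89280121 to 89285183 was 5063 bp wide with a fold of 5.27 and a −log10 q of 3.79, rank 4 of 264, and began 12.5 kb from the 3′ end of this 223 kb gene. SPEN, a corepressor that acts in X chromosome inactivation, had a peak of 6523 bp (chromosome 1, 15929002 to 15935524, rank 25) ending 4.93 kb before the gene's end. RLF, a zinc finger gene, had one of 3139 bp (chromosome 1, 40236853 to 40239991, rank 14) ending 0.930 kb before its end, the nearest to a 3′ end in the group. SRRM2, which encodes a scaffold of nuclear speckles, had a peak of 4449 bp (chromosome 16, 2762560 to 2767008, rank 29) that covered 23.7% of its 18.8 kb body, the largest share in the group. These 4 genes were added for their peaks.

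The listed genes of the class with a peak were SON and HIVEP1, 2 of 11. SON encodes a nuclear speckle protein needed for splicing of weak introns. Its peak (chromosome 21, 33550049 to 33556629) was 6581 bp wide, 19.1% of the gene body, with a fold of 4.09 and rank 35. The hairpin of the microRNA gene MIR6501 lies within this peak, 0.613 kb from its lower end, and is shown because it is the only stretch inside a peak of the group held in the RefSeq miRNA table (chr21:33550662-33550728, plus strand).
MIR6501 hairpin: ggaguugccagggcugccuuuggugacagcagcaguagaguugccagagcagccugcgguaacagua
HIVEP1, a zinc finger transcription factor gene, had a peak of 3960 bp (chromosome 6, 12120516 to 12124475, fold 4.0, rank 71). Its centre lay 56.2% of the way from the lower-coordinate end of the 204 kb gene. The paralogs HIVEP2 and HIVEP3, the histone methyltransferase genes KMT2A, KMT2C and KMT2D, the Polycomb-associated genes ASXL1, ASXL2 and ASXL3, and the RNA polymerase III factor gene BDP1 had no peak in either list.

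Among cytoskeletal, scaffold and muscle genes 3 of 16 had a TASOR2 KO peak. Of these, AKAP11 and MAP1B are among the genes that open the listing, so this count too is no unbiased rate. APC (gene ID 324, chromosome 5, 112707498 to 112846239) encodes a scaffold that drives destruction of beta-catenin, and its last coding exon carries most of its coding sequence. The peak at 112838367 to 112844928 was 6562 bp wide with a fold of 4.50 and a −log10 q of 2.15 (rank 16), the strongest among the 45 listed genes, and ended 1.31 kb before the gene's 3′ end. AKAP11, an anchor for protein kinase A, had a peak of 1697 bp (chromosome 13, 42301795 to 42303491) with a fold of 4.05 and rank 121. MAP1B, a microtubule-associated protein gene best known in neurons, had one of 4248 bp (chromosome 5, 72195637 to 72199884) with the lowest fold of the group, 3.77, and rank 166. The q values of AKAP11 (0.0746) and MAP1B (0.119) were above 0.05, and those of the other 11 genes were below it. No peak lay in the muscle genes TTN, XIRP1 and XIRP2, the presynaptic genes PCLO and BSN, the microtubule genes MAP1A and MAP2, the intermediate filament gene NES, the giant scaffold genes AHNAK and AHNAK2, or the crosslinker genes MACF1, DST and PLEC.

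The remaining classes held no TASOR2 KO peak. None lay in the 5 genes of cilia, photoreceptors and germ cells (RP1, RP1L1, ALMS1, TEX15 and FSIP2) or the 4 extracellular genes (the mucin gene MUC16 and the proteoglycan genes PRG4, VCAN and ACAN). As 0.858% of all protein-coding genes had such a peak, counts of 0 of 5 and 0 of 4 are near the background. TRANK1 (gene ID 9881, chromosome 3, 36826819 to 36945744), a gene of unsettled function, was the sole member with TASOR KO peaks. They were 2136 bp wide at 36906373 to 36908508 (fold 3.39, rank 165 of 427) and 990 bp at 36912157 to 36913146 (fold 3.03, rank 312). Both were weak, with q values of 0.0967 and 0.329, and lay in the first part of the gene, 32.2% and 27.8% of the way along. With peaks of a q of 0.05 or less, the listed genes with a peak numbered 0 in TASOR KO (background 0.494%) and 5 in TASOR2 KO (background 0.279%).

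The further list gave 1 peak in each knockout. ZNF292, a zinc finger transcription factor gene, had a TASOR2 KO peak of 6197 bp (chromosome 6, 87255593 to 87261789) (fold 4.40, rank 30 of 264), ending 4.15 kb before its 3′ end. LCOR, a corepressor of nuclear receptors, had a TASOR KO peak of 4303 bp (chromosome 10, 96980829 to 96985131) (fold 4.20, rank 84 of 427), centred 92.1% of the way along the gene. Both had q values below 0.05 (0.0143 and 0.00908).

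By their medians, TASOR2 KO peaks in long-exon genes were wider and higher-ranked than their list, though AKAP11 and the narrower CENPF peak were below the list's median width and MAP1B was below its median rank. The 14 peaks had a median width of 4348.5 bp (range 1573 to 6975). The median was 1937 bp for 81 peaks in the remaining protein-coding genes, 1968 bp for 77 in ZNF genes and 1881.5 bp for the whole list. The 81 include peaks in zinc finger genes of other names, such as ZFP62 and ZSCAN32. A width of at least 4000 bp was reached by 8 of the 14 (57.1%), 4 of them in listed and 4 in added genes, against 11 of the 81 (13.6%) and 16 of the 77 (20.8%). Of the 14, 12 (85.7%) had a q of 0.05 or less, against 20 of the 81 (24.7%), 21 of the 77 (27.3%) and 79 of 264 in all (29.9%). For the 8 peaks in listed genes alone the median width was 4104 bp and 6 had such a q. Folds differed less, with a median of 4.12 in the group and 3.92 in the list. Width, q and fold come from the same peaks that led to the choice of genes (6 of the 14 are in genes added for their peak), so they are given as a description with no test.

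**Figure D2:**
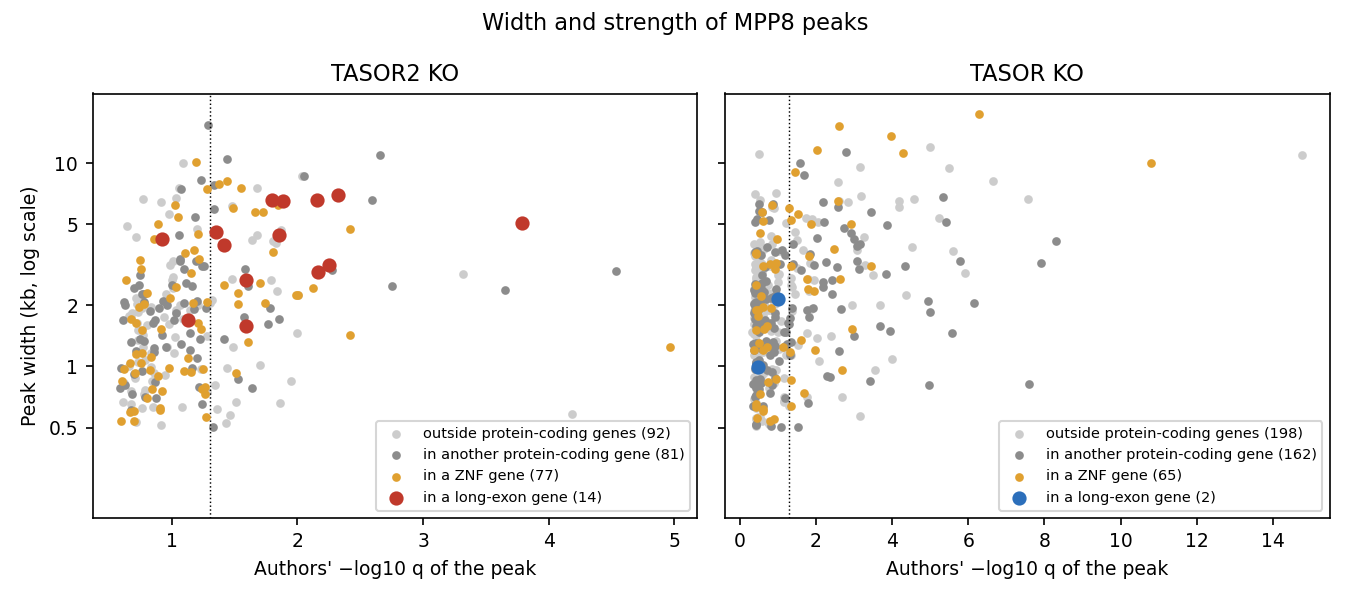
Width of each peak (kb, log axis) against the authors' −log10 q for TASOR2 KO (left) and TASOR KO (right), by the kind of gene it lies in, with the number of peaks in brackets; the dotted line marks a q of 0.05. The 14 red points of the long-exon genes have a median width of 4348.5 bp and 12 lie right of the line, while both TASOR KO points, in TRANK1, lie left of it.

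Within the group, genes with peaks were not the longest ones. The 7 listed genes with a TASOR2 KO peak had a median body of 61.4 kb (34.4 to 204), all 13 with the added genes a median of 62.5 kb (18.8 to 223), and the 38 without one a median of 119 kb (8.64 to 530), against 24.1 kb over all protein-coding genes. Promoter windows of both kinds of member overlapped widely in CG content. A promoter window was at hand for 46 members. The 6 listed genes with a TASOR2 KO peak held 14 to 35 CG dinucleotides in 300 bases (median 28.5). The 6 added genes held 20 to 50 (median 35). The 34 without a TASOR2 KO peak, among them TRANK1, held 1 to 56 (median 25). Genes were placed in the group partly for a peak, so these values are a description. Fewer than 10 were found in 7 members (TTN, MUC16, XIRP1, XIRP2, MAP2, PRG4 and MACF1, by the first window listed for each), and 0 of the 7 had a peak. A TASOR2 KO peak lay in 11 of all 4279 protein-coding genes with fewer than 10 (0.257%) and in 142 of the 11564 with 10 or more (1.23%), so a count of 0 among 7 is near the background. Over all protein-coding genes 27.0% of windows held fewer than 10, and 98.1% held at least 1. GC content overlapped as well, with medians of 63.8% in the 6 listed genes with a TASOR2 KO peak and 64.0% in the 34 without one. CG letters were counted on 1 strand, which for this dinucleotide gives the count of both, and RNA levels of the genes in these cells were not analysed here. RP1, RP1L1, HIVEP1, TEX15 and PLEC had no window in the table.

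**Figure D3:**
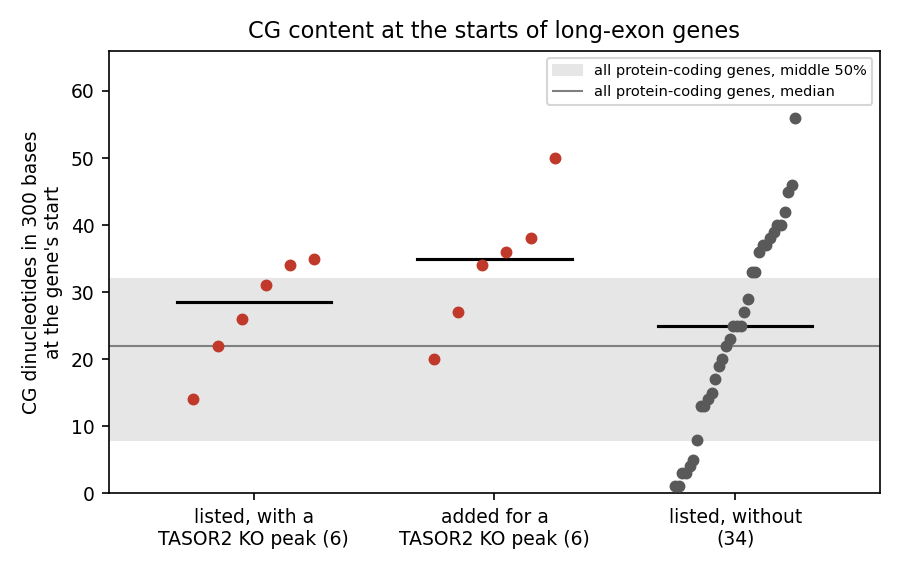
Number of CG dinucleotides in the 300 bases around the start of each long-exon gene (points) for 6 listed genes with a TASOR2 KO peak, the 6 genes added for one and 34 without; black bars are medians, and the grey line and band are the median and middle 50% of all protein-coding genes. The groups overlap, with medians of 28.5, 35 and 25.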

How the data were processed

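Per the submitters' processing notes, the reads were handled with MACS2, deepTools and Bowtie2 (version 2.3.5.1), naming hg38 and mm9. The deposited lists have no header; their columns follow the order MACS2 writes for broad peaks. The deposited fold enrichment is a ratio, the deposited −log10 p and −log10 q belong to single peaks, and the deposited score was the whole part of 10 times the −log10 q in all 691 peaks. No source used here gives the control library or thresholds. TASOR KO peaks had q values up to 0.460 and TASOR2 KO peaks up to 0.258.

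Coordinates are 1-based. A gene was counted when 1 bp or more of a peak lay in its RefSeq body (GRCh38.p14), for 20037 protein-coding genes. All 51 members matched by symbol, and 1 of the 50 further genes by synonym. Members and lists were chosen with earlier results of these data known; every member with a peak is named, as is each further gene with a peak. The overlap step was tested on simulated data. A planned rule on protein length was not run, since protein lengths were not used here. No p-value was computed. Tools were Python 3.11.15, scipy 1.17.1, numpy 2.4.6, matplotlib 3.10.9 and pandas 2.3.3.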

Additional observations from a re-analysis of the deposited data

How the results depend on the processing

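For the 45 listed and the 50 further genes, 28 alternative counts over 4 results were made. Of these, 25 stayed within 1.5 times the main count and 3 did not. Several of the 28 could not have moved, so the 25 is no measure of stability. Limiting both lists to a q of 0.258 or less, or to 264 peaks each, left the TASOR2 KO list whole. Leaving out chromosome 1 removed no TASOR KO peak, and extending bodies could not lower a count. All 14 TASOR2 KO peaks of the group lay wholly inside the gene body, so asking for 50% of the peak inside dropped none. The counts of the 6 added genes are fixed by their choice and carry no information on stability. At a q of 0.05 or less the listed genes with a TASOR KO peak went from 1 to 0. Without the 5 genes that open the listing, a choice added after seeing the data, they went from 1 to 0 in TASOR KO and from 7 to 3 in TASOR2 KO. Without chromosome 1 the added genes with a TASOR2 KO peak went from 6 to 3, since 3 of the 6 lie there. The count of 7 was 5 at a q of 0.05 or less, 6 with the 132 highest-scoring peaks, and 7 with bodies extended by 1 kb or 5 kb. Alternatives on protein length were not run. No paired analysis was possible because only 1 library stood for each knockout, and for that reason none could be left out. Depth is unknown, so a gene without a listed peak may still be bound.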

Other observations

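ANKRD12, the paralog of ANKRD11 and outside the listed genes, also carried a wide TASOR2 KO peak, which was picked out after its values were seen. It spanned 8300 bp (chromosome 18, 9255302 to 9263601, fold 3.96), the eighth widest of 264, but ranked 96 by −log10 q (1.23). GOLGB1, which encodes a giant Golgi protein, was noticed in the same way, with a peak of 3130 bp (chromosome 3, 121693669 to 121696798, fold 4.11, rank 94). Several wide TASOR2 KO peaks lay in genes not listed for a long exon, among them CPED1 (10918 bp, rank 8), MBNL1, a splicing regulator gene (8679 bp, rank 18), and the amino acid transporter gene SLC38A1 (6598 bp, rank 9). A wide peak in a gene body was thus not limited to the listed genes.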
